A study of Mus musculus with 38 samples.

Results

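Wild type (WT) melanocytes of mouse dorsal skin were compared between postnatal day 56 (P56), when hair follicles rest (telogen), and day 30 (P30), when they grow and pigment is made for the hair (anagen). The comparison used 2 WT P30 and 2 WT P56 libraries of the 38 bulk RNA sequencing libraries of the series, and 2 libraries of mutant P56 melanocytes entered the fit to estimate the spread. The labels give the wild type genotype, the melanocyte source, dorsal skin and the age, and name no other allele or agent. According to the study's text, melanocytes were sorted on a tdTomato reporter that the control mice carried with Tyr-CreERT2. This is a Cre recombinase under the tyrosinase promoter that tamoxifen, given to the mice, switches on. The sort thus depends on where that promoter was active when tamoxifen was given. The study's methods state that RNA came from biological replicates of sorted cells, more per group than the 2 libraries analysed here. The labels do not tie the libraries to animals, so the p-values reflect how far libraries of a group differ, whatever the source of that difference. Of 22282 genes in the melanocyte table, 17324 are protein-coding, and 12262 of these reached 1 FPKM (sequenced fragments scaled by transcript length and by the reads mapped in the library) in at least 2 of the 4 libraries. Without 368 genes on X or Y and 10 with no position, 11884 genes were compared.

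Melanocytes make melanin in melanosomes, organelles related to lysosomes, and hand these to the keratinocytes that build the hair shaft. Tyrosinase and its relatives carry out the synthesis, structural proteins such as PMEL build the fibrils on which pigment is laid down, and ion channels and transporters set the conditions inside the organelle. The transcription factors MITF, SOX10 and PAX3 control these genes, and the receptors KIT, EDNRB and MC1R carry signals from the surrounding cells. Pigment is made while the follicle grows, and melanocyte stem cells remain in the follicle through the resting phase.

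The table holds no read counts, and the study's methods give only a range for the average depth of its bulk libraries. The depth of each library is therefore unknown and no counting interval can be given. FPKM values summed to 730638 and 703179 at P30 and to 922984 and 890698 at P56, and 12217 to 12657 genes reached 1 FPKM in a library. Log2 values of the 2 libraries correlated at 0.990 at P30 and 0.994 at P56, and at 0.877 to 0.884 between the ages (across genes, which are not independent replicates). *Xist* was listed at 0 to 0.05 FPKM, and the Y-linked *Ddx3y* was read in all 4 libraries, at 22 and 26.6 FPKM at P30 and 8.66 and 8.12 FPKM at P56. The melanocyte markers *Dct*, *Pmel* and *Mlana* were at 1156 FPKM or more in all 4 libraries. Markers of other cells were also read and differed between the ages. The summed level of 15 keratinocyte markers was 1055 and 1074 FPKM at P30 and 6602 and 6139.6 FPKM at P56, that of 10 fibroblast markers 1366 and 1383 FPKM at P30 and 200.1 and 189.8 FPKM at P56, and that of 7 skeletal muscle markers 14.4 and 16.2 FPKM at P30 and 939 and 877 FPKM at P56. The part of these cells in the results below was not tested.

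A gene was called where limma gave a Benjamini-Hochberg adjusted p under 0.05 (two-sided) and the difference on the log2(FPKM + 1) scale was 2-fold or more. All adjusted p-values and log2 changes (P56 minus P30) below come from that limma fit, on a scale that understates the ratio of low genes. Of the 11884 genes, 3265 were called (27.5%), of which 1784 were higher at P56 (15% of all tested) and 1481 lower (12.5%). Among them, 376 of the higher and 235 of the lower genes changed 4-fold or more, and 106 and 42 changed 8-fold or more. The list counts below are to be read against the 15% higher and 12.5% lower of all genes tested. In bulk samples, fewer cells of a type and less RNA per cell cannot be told apart.

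The median change of all tested genes was 0.15, and the balance of the calls moved with the scaling between libraries. With library sums set equal, 1215 genes were higher and 2420 lower (median change -0.15). Median ratio scaling gave 1340 and 1928 (median -0.04), and quantile normalization gave 1512 and 1695 (median 0.02). The calls were 54.6% higher genes as deposited and 33.4%, 41% and 47.1% under these 3 scalings. None of the 3265 called genes changed sign under them. Since the scalings moved the median by less than the 2-fold of a call, this is not evidence of robustness.

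**Figure D1:**
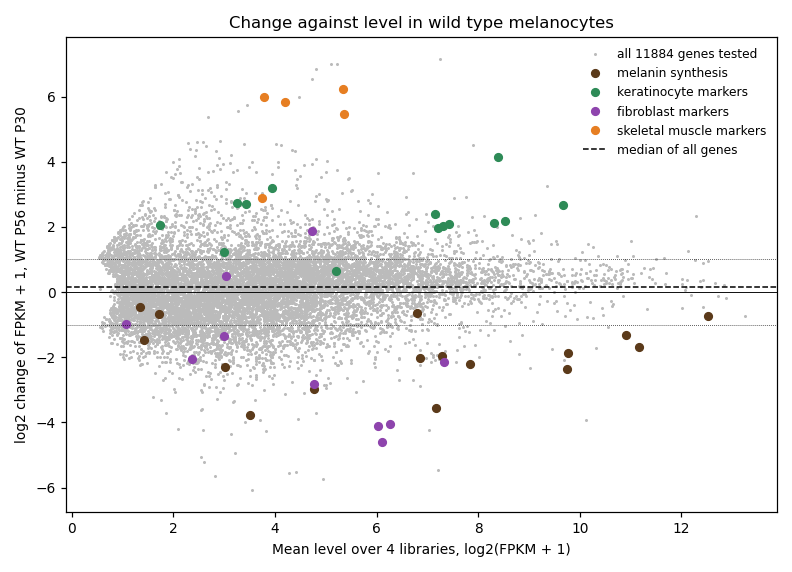
Log2 change of FPKM + 1 (P56 minus P30, vertical axis) against the mean log2(FPKM + 1) of the 4 libraries for all 11884 genes (grey), with 4 gene lists in colour. Dotted lines mark 2-fold and the dashed line the median of all genes, 0.15; melanin synthesis genes and most fibroblast markers lie below zero, keratinocyte and skeletal muscle markers above.

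Melanin synthesis genes were lower at P56. Of 16 tested genes for melanin synthesis and the melanosome membrane, 12 fell and 0 rose, with a median change of -1.91 against 0.15 over all genes tested, and the other 4 were lower at P56 by less than 2-fold. The count that fell was 12 to 13 under the 3 other scalings. The summed level of the 17 genes in the table was 20449 and 20344 FPKM at P30 and 8592 and 8237 FPKM at P56. Below, values are given for the 2 P30 libraries first and then for the 2 P56 libraries.

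*Tyr* encodes tyrosinase, the rate-limiting enzyme of melanin synthesis (ENSMUSG00000004651.5, chromosome 7, 87424771 to 87493512 on GRCm38). It was 479 and 509 FPKM in the P30 libraries and 41.7 and 40.01 FPKM in the P56 libraries, a 12.1-fold difference of means (log2 change -3.56 ± 0.070 SE, adjusted p = 2.05e-08). *Tyrp1*, which encodes tyrosinase-related protein 1 (chromosome 4, 80834123 to 80851719), fell from 1891 and 2015 to 392 and 369.9 FPKM (-2.35 ± 0.072 SE, adjusted p = 1.68e-07). *Dct*, which encodes dopachrome tautomerase, a further member of the enzyme family (chromosome 14, 118012790 to 118052244), was 7568 and 7556 against 4523 and 4526 FPKM and did not reach 2-fold (-0.74 ± 0.079 SE, adjusted p = 6.77e-05). In all 3 enzyme genes the P30 libraries lay above the P56 libraries. The ages did not overlap, in either direction, for 10123 of all 11884 genes tested. With library sums set equal, the change of *Dct* was -1.08 and was called.

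*Pmel*, whose product forms the fibrils of the melanosome (chromosome 10, 128704195 to 128720238), fell from 3021 and 3079.6 to 1305 and 1156 FPKM (log2 change -1.31 ± 0.095 SE, adjusted p = 8.79e-06). *Mlana*, which encodes a melanosome protein used as a marker of the lineage (chromosome 19, 29697824 to 29708634), fell from 4369 and 3938 to 1333 and 1224 FPKM (-1.70 ± 0.087 SE, adjusted p = 1.68e-06). *Gpnmb*, a relative of *Pmel*, fell from 1634 and 1699 to 474 and 446 FPKM (-1.86). All 3 remained among the most abundant RNAs of the list in the P56 libraries, above *Tyr*.

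Among the channels and transporters, *Oca2*, which encodes a melanosome protein that is mutated in albinism, showed the largest fall of the list on this scale (with a pseudocount of 5 that of *Tyr*, at -3.44, exceeded it, at -2.71), from 38.6 and 44.3 to 2.55 and 1.67 FPKM (log2 change -3.78 ± 0.145 SE, adjusted p = 4.25e-07). *Slc24a5*, a cation exchanger gene, fell from 484 and 504 to 115 and 97.6 FPKM (-2.21), and *Slc45a2*, a transporter gene, from 222 and 240.4 to 59.6 and 53.2 FPKM (-2.02). *Mfsd12*, whose product takes cysteine into melanosomes, fell from 17.04 and 16.7 to 2.84 and 2.41 FPKM (-2.31). The cation exchanger gene *Slc24a4* was low at both ages (3.29 and 3.60 against 0.80 and 0.43 FPKM, -1.47), and *Tpcn2*, a cation channel gene, did not pass (3.38 and 2.97 against 1.55 and 1.64 FPKM, -0.68).

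*Mc1r* encodes the receptor for melanocyte-stimulating hormone (chromosome 8, 123407107 to 123410744). It fell from 71.8 and 80.2 to 9.20 and 8.32 FPKM (log2 change -2.98 ± 0.10 SE, adjusted p = 2.43e-07). *Trpm1*, a channel gene expressed in the lineage, fell from 303 and 312 to 78.8 and 76.3 FPKM (-1.97). *Tspan10*, a tetraspanin gene (139 and 135 against 92.7 and 83.7 FPKM, -0.63), and *Slc7a11*, which encodes a cystine importer (1.69 and 2.28 against 0.93 and 1.43 FPKM, -0.46), were not called. *Cited1*, a transcription cofactor gene on X, was outside the genes tested, at 202 and 206 against 160.2 and 148 FPKM.

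**Figure D2:**
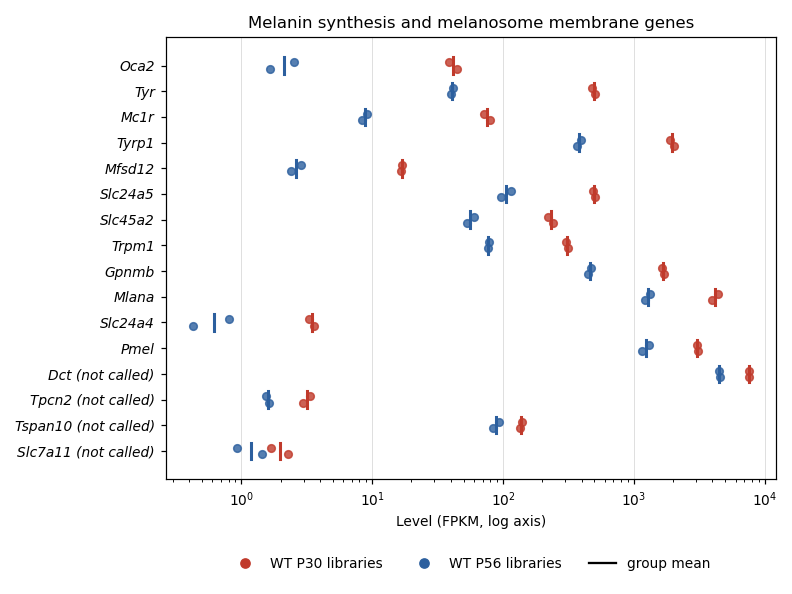
Level (FPKM, log axis) of the 16 tested melanin synthesis and melanosome membrane genes in each WT P30 (red) and WT P56 (blue) library, where points are libraries and vertical bars group means. The P56 points lie to the left of the P30 points for every gene, by 12.1-fold for *Tyr* and by less than 2-fold for *Dct*.

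MITF is known to bind M-box and E-box sequences in promoters of pigment genes, so the promoters were searched for both. RefSeq promoter windows on GRCm38.p6, from 250 bases before to 50 bases after the start, were found for 13 of the 16 genes, and *Pmel*, *Mlana* and *Slc45a2* had none. The M-box core TCATGTG, searched on both strands, was present in 8 of the 13 genes, against 2.71% of the 8970 tested genes with a window and 3.77% of all 32851 windows. The E-box CACGTG, which is not contained in the M-box core, was present in 2 of the 13, *Slc24a4* and *Trpm1*, against 11.8% of those tested genes and 7.15% of all windows. The 8 genes with an M-box core include *Dct*, *Tspan10* and *Slc7a11*, which were not called, while *Oca2*, *Gpnmb* and *Mfsd12* fell with neither motif in the window. Since the M-box was searched because it is known from promoters of pigment genes, its higher share in this list is not independent evidence. A match describes letters and is not a site of binding. The 250 bases before the start are shown, with the core in capitals, for the genes with an M-box core that fell (*Tyr*, *Tyrp1*, *Mc1r*, *Slc24a5* and *Trpm1*) and for *Dct*, as the remaining enzyme gene, and not for *Tspan10* and *Slc7a11*. The core lies 22 bases before the start in *Tyr*, 47 in *Tyrp1*, 52 in *Mc1r*, 13 in *Slc24a5*, 142 in *Trpm1* and 232 and 151 in *Dct*.
Tyr, chr7:87493513-87493762, - strand: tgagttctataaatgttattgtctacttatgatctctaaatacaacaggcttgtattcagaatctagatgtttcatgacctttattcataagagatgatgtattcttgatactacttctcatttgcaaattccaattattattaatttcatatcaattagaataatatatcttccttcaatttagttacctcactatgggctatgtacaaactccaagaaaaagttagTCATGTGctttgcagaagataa
Tyrp1, chr4:80833963-80834212, + strand: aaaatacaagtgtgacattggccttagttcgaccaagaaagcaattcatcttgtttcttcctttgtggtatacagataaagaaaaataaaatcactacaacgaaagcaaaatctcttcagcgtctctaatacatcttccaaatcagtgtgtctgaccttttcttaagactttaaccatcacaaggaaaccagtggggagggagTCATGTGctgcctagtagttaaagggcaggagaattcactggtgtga
Dct, chr14:118052247-118052496, - strand: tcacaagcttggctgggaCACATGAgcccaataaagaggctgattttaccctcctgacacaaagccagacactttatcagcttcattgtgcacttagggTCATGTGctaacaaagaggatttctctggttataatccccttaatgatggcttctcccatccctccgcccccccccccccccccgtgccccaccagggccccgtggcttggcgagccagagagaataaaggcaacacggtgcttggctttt
Mc1r, chr8:123406832-123407081, + strand: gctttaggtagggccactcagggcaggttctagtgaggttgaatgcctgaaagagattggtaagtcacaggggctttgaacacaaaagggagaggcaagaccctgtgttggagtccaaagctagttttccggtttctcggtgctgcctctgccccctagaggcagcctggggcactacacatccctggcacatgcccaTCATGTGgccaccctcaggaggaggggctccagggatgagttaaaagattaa
Slc24a5, chr2:125067877-125068126, + strand: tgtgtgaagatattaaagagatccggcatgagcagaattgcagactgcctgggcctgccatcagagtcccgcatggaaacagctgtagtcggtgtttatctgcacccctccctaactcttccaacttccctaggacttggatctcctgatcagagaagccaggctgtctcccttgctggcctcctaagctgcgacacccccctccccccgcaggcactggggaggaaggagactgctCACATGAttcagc
Trpm1, chr7:64153585-64153834, + strand: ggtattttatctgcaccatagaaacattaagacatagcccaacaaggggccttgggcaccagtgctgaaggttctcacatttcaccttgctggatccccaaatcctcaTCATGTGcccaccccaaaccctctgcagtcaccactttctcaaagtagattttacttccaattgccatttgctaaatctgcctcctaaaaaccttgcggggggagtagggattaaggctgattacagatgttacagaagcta

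Genes that build and move melanosomes changed less evenly. Of 25 tested genes for melanosome biogenesis and transport, 8 fell and 1 rose, with a median of -0.49. The shares over all genes tested were 12.5% and 15%. The count that fell was 4 with a pseudocount of 5 and 11 with library sums set equal. Genes of the complex that ties melanosomes to actin were lower, as *Mlph*, the gene of the linker melanophilin, fell from 60.4 and 61.05 to 19.2 and 20.3 FPKM (log2 change -1.57) and *Rab27a*, its GTPase partner, from 51.6 and 58.02 to 25.5 and 26.6 FPKM (-1.04, or -0.96 and not called without WT P30 replicate 2). *Myo5a*, the motor gene of the same complex, was 115 and 124 against 64.3 and 64.6 FPKM and did not reach 2-fold (-0.88). The cargo-sorting GTPase genes *Rab32* (30.2 and 32.6 against 10.6 and 8.52 FPKM, -1.62) and *Rab38* (174 and 171 against 63.4 and 62.2 FPKM, -1.44) also fell.

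*Lyst*, the gene mutated in Chediak-Higashi syndrome, fell from 5.77 and 5.61 to 1.10 and 1.19 FPKM (log2 change -1.64). *Hps5*, a subunit gene of the BLOC-2 complex that sorts melanosome cargo, fell from 9.05 and 9.42 to 2.45 and 2.23 FPKM (-1.62), and *Sytl2*, an effector gene of RAB27A, from 31.1 and 36.8 to 10.4 and 11.02 FPKM (-1.57). The riser was *Dtnbp1*, a subunit gene of the BLOC-1 complex, which went from 53.3 and 51.1 to 127 and 117 FPKM (1.21, not called under the 3 other scalings, at 0.87 with library sums set equal). The summed level of the 27 genes was 1154 and 1143 FPKM at P30 and 1180.3 and 1108 FPKM at P56, so the ages overlapped in the sum.

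Lysosome genes, whose products share the acidic compartment, fell in 8 of 20 cases and rose in 1, with a median of -0.81. The shares over all genes tested were 12.5% and 15%. Subunit genes of the proton pump were among them, as *Atp6v0a1* fell from 109 and 109 to 37.3 and 37.5 FPKM (log2 change -1.52) and *Atp6v1b2* from 304 and 330.0 to 125 and 119 FPKM (-1.37). The protease gene *Ctsd* fell from 709.9 and 754 to 302 and 282 FPKM (-1.32). *Npc1*, a cholesterol transporter gene of the lysosome, rose from 35.5 and 25.1 to 85.5 and 122 FPKM (1.74).

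Transcription factors and receptors of the lineage did not fall as a list. Of 21 tested, 5 fell, 3 rose and 13 were not called, against 12.5% lower and 15% higher over all genes tested. The median was 0.43, and the summed level of the 22 genes was 1202 and 1225 FPKM at P30 and 1221 and 1234 FPKM at P56. With library sums set equal, 7 fell and 1 rose (median 0.11). *Mitf*, the master regulator of the lineage (ENSMUSG00000035158.15, chromosome 6, 97807052 to 98021349), was 74.9 and 69.02 against 114 and 113 FPKM, a change of 0.66 ± 0.077 SE, adjusted p = 0.00012, under 2-fold. *Pax3*, which acts upstream of *Mitf*, was 111 and 119.8 against 129 and 129.5 FPKM (0.17). *Sox10* (chromosome 15, 79154908 to 79165240), which acts with PAX3 on *Mitf*, fell from 346 and 355 to 104 and 101 FPKM (-1.77 ± 0.075 SE, adjusted p = 6.81e-07). *Sox10* RNA thus lay above *Mitf* RNA in both P30 libraries and below it in both P56 libraries, in FPKM.

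Among receptors, *Ednrb*, the endothelin receptor B gene (chromosome 14, 103814625 to 103844402), was 172 and 183 against 285 and 268 FPKM (log2 change 0.64 ± 0.074 SE, adjusted p = 0.000106), under 2-fold. *Kit*, the receptor gene for stem cell factor (chromosome 5, 75574916 to 75656722), was 30.9 and 32.97 against 15.4 and 16.2 FPKM, just short of 2-fold (-0.97 ± 0.088 SE, adjusted p = 2.77e-05). It was called under the 3 other scalings, at -1.31, -1.18 and -1.15, and without WT P30 replicate 1 (-1.02) or WT P56 replicate 2 (-1.01). *Ngfr*, a neurotrophin receptor gene of neural crest cells, fell from 11.4 and 10.3 to 0.43 and 0.41 FPKM (-3.06), *Erbb3*, a neuregulin receptor gene, from 28.9 and 28.8 to 3.81 and 4.30 FPKM (-2.56), and *Met*, the hepatocyte growth factor receptor gene, from 59.5 and 59.8 to 23.9 and 22.8 FPKM (-1.32). The P30 libraries lay above the P56 libraries for these receptors other than *Ednrb*, which was the reverse. Such a lack of overlap held for 10123 of all 11884 genes tested.

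*Irf4*, a transcription factor gene of the pigment pathway, fell from 11.3 and 13.3 to 3.11 and 2.95 FPKM (log2 change -1.72). The 3 that rose encode transcription factors of the neural crest and its derivatives, *Foxd3* (29.3 and 26.8 against 72.2 and 72.04 FPKM, 1.33), *Tfap2b* (83.8 and 65.9 against 159 and 198 FPKM, 1.24) and *Zeb1* (8.61 and 7.35 against 19.8 and 19.8 FPKM, 1.21). With library sums set equal *Tfap2b* and *Zeb1* were not called, at 0.91 and 0.92, and quantile normalization gave 0.91 for *Tfap2b*, also not called.

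**Figure D3:**
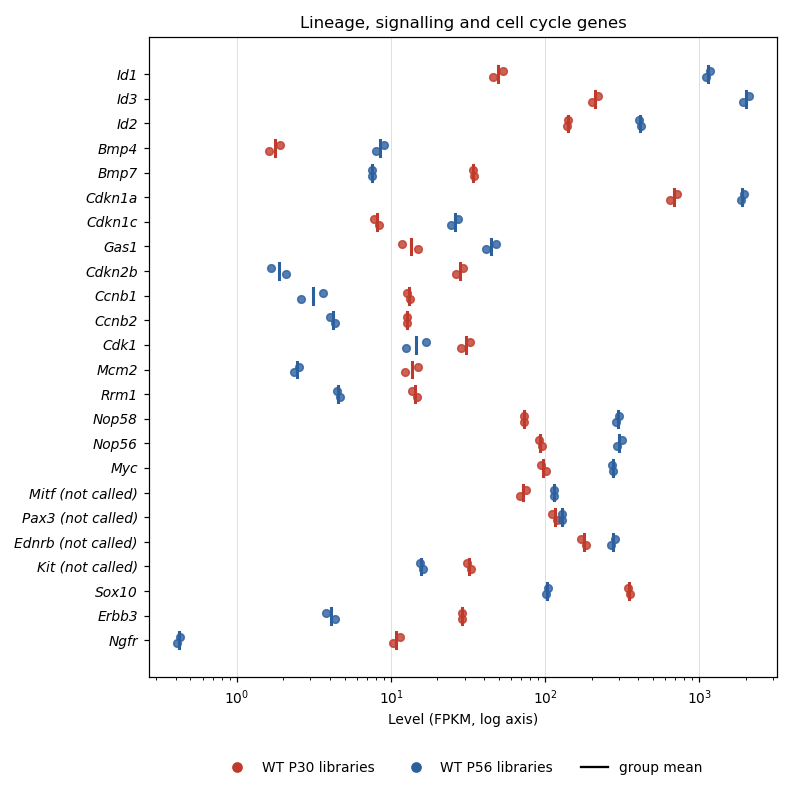
Level (FPKM, log axis) of 24 genes of BMP signalling, the cell cycle, ribosome biogenesis and the melanocyte lineage in each WT P30 (red) and WT P56 (blue) library, where points are libraries and vertical bars group means. *Id1* and *Id3* stand higher at P56, *Cdkn2b* and *Ngfr* lower, and *Pax3* libraries are close together.

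Of 30 tested mitosis genes 9 fell, 0 rose and 21 were not called (median -0.60, against 0.15 over all genes tested), with a summed level of 252 and 252 FPKM at P30 and 153 and 140.0 FPKM at P56. *Ccnb1*, the gene of cyclin B1, fell from 12.7 and 13.3 to 3.60 and 2.60 FPKM (log2 change -1.78), *Ccnb2* from 12.7 and 12.7 to 4.01 and 4.36 FPKM (-1.40), and *Nusap1*, a spindle gene, from 3.51 and 4.74 to 0.85 and 1.5 FPKM (-1.24). *Cdk1*, the kinase gene that acts with the cyclins, fell from 32.6 and 28.6 to 16.7 and 12.5 FPKM (-1.03) and was not called without WT P30 replicate 1 (-0.94) or WT P56 replicate 2 (-0.83). *Mki67*, a marker of cycling cells, was too low to be tested, at 0.93 and 1.33 against 0.41 and 0.30 FPKM. *Cenpf*, a kinetochore gene, lay higher at P56, at 1.09 and 0.85 against 2.06 and 2.77 FPKM (0.79, under 2-fold on this scale). The count that fell was 1 with a pseudocount of 5 and 4 among genes that reached 5 FPKM in at least 2 libraries, and it was 14 with library sums set equal.

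Of 33 DNA replication genes 5 fell and 4 rose, close to the 12.5% and 15% over all genes tested. With library sums set equal 9 fell and 0 rose and the median turned from 0.10 to -0.22, and with a pseudocount of 5 there were 2 that fell and 1 that rose. The helicase subunit gene *Mcm2* fell from 15.1 and 12.4 to 2.53 and 2.36 FPKM (log2 change -2.09) and the ribonucleotide reductase gene *Rrm1* from 13.8 and 14.8 to 4.43 and 4.64 FPKM (-1.47). *Gins2* (20.6 and 29.6 against 68.8 and 53.4 FPKM, 1.26) and *Gins1* (2.08 and 2.26 against 6.73 and 5.91 FPKM, 1.21), whose products form part of the same replicative helicase, and *Lig1*, a DNA ligase gene (7.53 and 9.63 against 19.6 and 21.2 FPKM, 1.17), rose.

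Of 20 tested cell cycle inhibitor and quiescence genes 4 rose and 3 fell, close to the 15% and 12.5% over all genes tested. *Cdkn1a*, which encodes p21 (chromosome 17, 29090976 to 29100727), rose from 719 and 649.5 to 1937 and 1861 FPKM (log2 change 1.47 ± 0.077 SE, adjusted p = 1.87e-06). *Cdkn1c*, which encodes p57 (chromosome 7, 143458339 to 143461050), rose from 7.74 and 8.40 to 27.3 and 24.4 FPKM (1.56 ± 0.103 SE, adjusted p = 5.68e-06). *Gas1*, a growth arrest gene, rose from 11.9 and 15 to 47.8 and 41.2 FPKM (1.66), and *Pdk4*, a kinase gene that limits pyruvate oxidation, from 11.6 and 16.2 to 38.1 and 36.5 FPKM (1.38).

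*Cdkn2b*, which encodes the inhibitor p15 (chromosome 4, 89306299 to 89311039), fell from 29.4 and 26.4 to 1.67 and 2.07 FPKM (log2 change -3.33 ± 0.108 SE, adjusted p = 2.08e-07). Its neighbour *Cdkn2a*, a gene linked to senescence, was at 0.28 and 0.10 FPKM at P30, was listed at 0 in both P56 libraries and was too low to be tested. *Txnip*, a redox regulator gene, fell from 203 and 223 to 60.2 and 62.1 FPKM (-1.78), and *Ccng1*, a target gene of p53, from 12.4 and 15.1 to 5.78 and 4.94 FPKM (-1.21). The 4 rises were counted under all 3 other scalings, and 4 to 5 genes fell there.

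Of 25 tested genes of the TGF-beta and bone morphogenetic protein (BMP) pathways 7 rose and 3 fell, against 15% and 12.5% over all genes tested. The median was -0.07, and the count that rose was 4 with a pseudocount of 5. Among the targets, *Id1*, which encodes an inhibitor of basic helix-loop-helix factors (chromosome 2, 152736251 to 152737410), rose from 53.1 and 45.8 to 1171 and 1104 FPKM (log2 change 4.50 ± 0.085 SE, adjusted p = 1.77e-08). Its relatives *Id3* (chromosome 4, 136143497 to 136145755) rose from 219 and 200.1 to 2087 and 1934 FPKM (3.26 ± 0.081 SE, adjusted p = 6.92e-08) and *Id2* from 140.4 and 139 to 403 and 417 FPKM (1.54), while *Id4* was 24.2 and 26.8 against 23.5 and 25.1 FPKM, with overlapping libraries. For the 3 *Id* genes that rose the ages did not overlap, which held for all 3265 called genes and for 10123 of all 11884 tested.

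Of the ligands, *Bmp4* rose from 1.90 and 1.62 to 8.96 and 8.0 FPKM (log2 change 1.78) and *Bmp2* from 0.78 and 1.34 to 5.63 and 5.66 FPKM (1.70), and *Bmp7* fell from 33.9 and 34.6 to 7.54 and 7.49 FPKM (-2.05). The signal mediator gene *Smad1* rose from 6.70 and 5.37 to 22.3 and 19.7 FPKM (1.65). On the TGF-beta side, the receptor gene *Tgfbr2* fell from 14.3 and 12.7 to 2.99 and 2.58 FPKM (-1.94) and *Tgfbi*, a target gene, from 44.6 and 47.2 to 22.6 and 19.96 FPKM (-1.08, or -0.99 and not called without WT P56 replicate 2). *Id1* and *Id3* are also known from keratinocytes and endothelium, whose markers were higher at P56, and the part of those cells in these rises was not tested.

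WNT pathway genes, whose products help to start follicle growth, changed in both directions, with 8 of 26 higher and 8 lower. The shares over all genes tested were 15% and 12.5%, and with a pseudocount of 5 the list counts were 6 and 3. *Ctnnb1*, the gene of the effector beta-catenin, fell from 277 and 287 to 63.3 and 61.6 FPKM (log2 change -2.16), and the secreted inhibitor gene *Sfrp2* fell from 35.6 and 39.2 to 3.20 and 2.64 FPKM (-3.30). The receptor gene *Fzd7* (8.73 and 11.4 against 3.24 and 3.27 FPKM, -1.37) and the factor gene *Tcf7* (16.8 and 17.8 against 6.96 and 6.67 FPKM, -1.23) fell as well.

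Higher at P56 were *Lgr5*, a receptor gene that marks hair follicle stem cells (0.55 and 0.89 against 12.3 and 15.1 FPKM, 3.10), the inhibitor gene *Wif1* (2.17 and 3.58 against 24.5 and 24.3 FPKM, 2.74) and the ligand genes *Wnt10b* (0.19 and 0.13 against 6.72 and 5.28 FPKM, 2.59) and *Wnt4* (1.86 and 1.19 against 9.31 and 8.60 FPKM, 1.99). These 4 were at or below 3.58 FPKM in both P30 libraries. The study counts *Wif1* among the quiescence markers of bulge stem cells, and keratinocyte markers were higher at P56. The part of follicle cells in these rises was not tested. *Axin2*, a target of the pathway, was 7.23 and 5.29 against 5.14 and 7.18 FPKM, with overlapping libraries. The summed level of the 28 genes was 753 and 798 FPKM at P30 and 433 and 421 FPKM at P56. Much of the fall in this sum was that of *Ctnnb1*, given above. The median change of the list turned from 0.20 to -0.10 with library sums set equal.

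Feedback targets of the MAPK pathway, which acts downstream of KIT and other growth factor receptors, fell in 6 of 16 cases and rose in 3. The shares over all genes tested were 12.5% and 15%. *Spry4*, an inhibitor gene, fell from 6.18 and 6.20 to 0.58 and 0.68 FPKM (log2 change -2.14), and the factor genes *Etv1* and *Etv5* from 21.02 and 23.4 to 5.22 and 5.42 FPKM (-1.88) and from 26.5 and 30.9 to 7.58 and 9.06 FPKM (-1.67). The phosphatase gene *Dusp4* fell from 56.4 and 57.9 to 23.7 and 19.1 FPKM (-1.38). The AP-1 gene *Fosl1* rose from 21.3 and 19.9 to 124 and 114 FPKM (2.48), and *Myc*, a growth regulator gene, from 93.8 and 101 to 273 and 275 FPKM (1.49).

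Of 14 Notch pathway genes 2 rose, near the 15% over all genes tested. These were the ligand gene *Jag2* (1.03 and 0.84 against 4.49 and 3.67 FPKM, 1.39) and the effector gene *Rbpj* (10.3 and 8.74 against 19.8 and 20.3 FPKM, 1.0), which was not called under the 3 other scalings (0.70 to 0.99) or without WT P30 replicate 2 (0.89) or WT P56 replicate 2 (0.98). The count that rose was 5 without WT P30 replicate 1, 6 with a pseudocount of 0.1 and 0 with a pseudocount of 5. The target gene *Hes1* was 118 and 128 against 118 and 126 FPKM, with overlapping libraries.

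**Figure D4:**
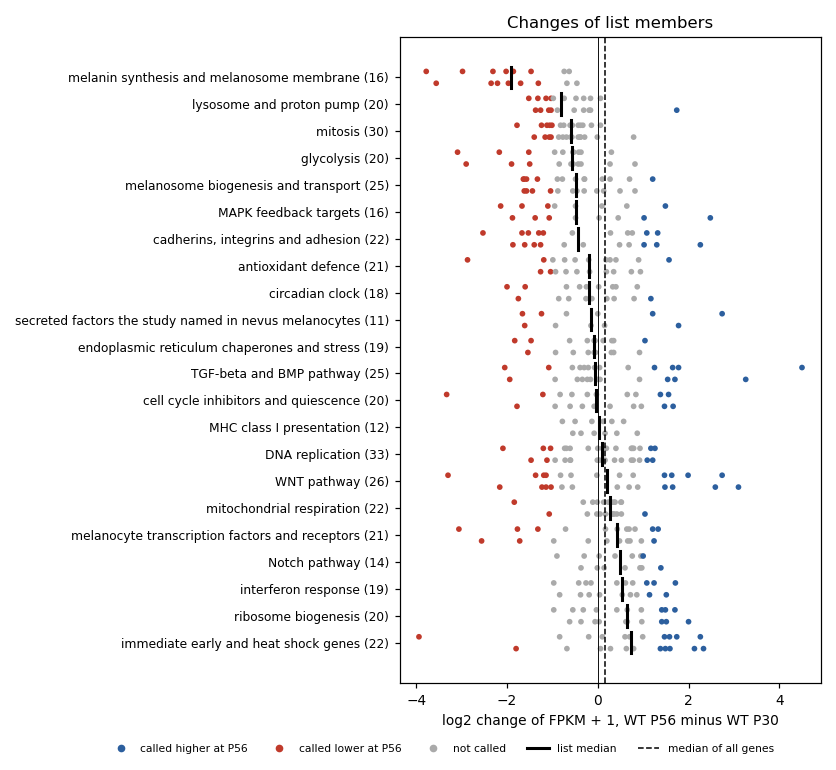
Log2 change of FPKM + 1 (P56 minus P30) of the tested members (number in brackets) of 22 gene lists, ordered by list median (black bar); blue points were called higher at P56, red lower and grey not called, and the dashed line is the median of all genes, 0.15. List medians run from -1.91 for melanin synthesis to 0.74 for immediate early and heat shock genes.

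Immediate early genes, which respond within minutes to stimuli, form with heat shock genes a list of 22, of which 9 rose and 2 fell. The shares over all genes tested were 15% and 12.5%. Under the 3 other scalings 9 rose in each, and 4 fell with library sums set equal or quantile normalization. *Egr3* was low, at 1.19 and 1.29 against 0.27 and 0.23 FPKM, and the others of the list were at 14.4 FPKM (*Egr2*) or more in all 4 libraries. *Fos* rose from 2179 and 2257 to 11663 and 10688 FPKM (log2 change 2.33), *Jund* from 201 and 209 to 994 and 983 FPKM (2.26) and *Dusp1*, a phosphatase gene, from 182 and 172 to 813 and 747 FPKM (2.13). The 2 that fell are the chaperone gene *Hspa1a* (4142 and 4566 against 295 and 269 FPKM, -3.94) and its near-identical copy *Hspa1b* (159 and 121 against 40.1 and 38.3 FPKM, -1.80), between which reads cannot be assigned with certainty.

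Ribosome biogenesis genes rose in 6 of 20 cases and fell in 0 (median 0.64), against 15% and 12.5% over all genes tested. The nucleolar genes *Nop58* (72.9 and 73.1 against 301 and 289 FPKM, 2.0), *Nop56* (90.6 and 94.99 against 314 and 293 FPKM, 1.70) and *Nop14* (13.7 and 12.9 against 39.97 and 39.5 FPKM, 1.51) were among those that rose, and *Ncl*, which encodes nucleolin, went from 92.96 and 96.7 to 247 and 259 FPKM (log2 change 1.41). Under the 3 other scalings 6 rose and 1 fell, with a median of 0.31 to 0.43. *Myc*, which is in this list too, rose as given above.

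Glycolysis genes went the other way, with 6 of 20 lower and 0 higher (median -0.57), against 12.5% and 15% over all genes tested. *Hk1*, the hexokinase gene, fell from 67.6 and 68.5 to 6.42 and 7.83 FPKM (log2 change -3.09), *Slc16a3*, which encodes a lactate exporter, from 17.6 and 15.8 to 1.59 and 1.17 FPKM (-2.90), *Eno1*, an enolase gene, from 845 and 876 to 237 and 223 FPKM (-1.90) and *Pkm*, the pyruvate kinase gene, from 645 and 689 to 246 and 223 FPKM (-1.5). Under the 3 other scalings 8 to 9 fell.

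Of 22 genes of mitochondrial respiration, 2 fell and 1 rose, below the 12.5% and 15% over all genes tested. Those that fell were *Cs*, the citrate synthase gene (64.7 and 73.6 against 19.4 and 17.7 FPKM, -1.84), and *Ndufs1*, a complex I gene (34.3 and 35.2 against 16.9 and 15.2 FPKM, -1.07). *Cycs*, the cytochrome c gene, rose from 20.8 and 22.4 to 44 and 46.9 FPKM (log2 change 1.04) and was not called under the 3 other scalings (0.71 to 0.85) or without WT P30 replicate 1 or WT P56 replicate 2 (0.99 in both). The median of the list was 0.26 and turned to -0.07 with library sums set equal and to -0.13 with quantile normalization.

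Adhesion genes fell in 9 of 22 cases and rose in 5, against 12.5% and 15% over all genes tested. Under the 3 other scalings 9 to 10 fell and 2 to 3 rose, and with a pseudocount of 5 there were 6 that fell and 2 that rose. *Cdh1*, the gene of E-cadherin, through which melanocytes hold to keratinocytes, fell from 66.4 and 66.5 to 10.9 and 10.4 FPKM (log2 change -2.53). *Cd44*, which encodes a receptor for hyaluronan and osteopontin (chromosome 2, 102811141 to 102901665), fell from 249 and 263 to 70.8 and 67.8 FPKM (-1.87 ± 0.069 SE, adjusted p = 3.71e-07). *Mcam*, which encodes a melanoma cell adhesion molecule, fell from 26.1 and 25.3 to 8.11 and 7.38 FPKM (-1.61). *Epcam*, an epithelial gene, rose from 10.9 and 9.63 to 55.96 and 50.1 FPKM (2.26), and keratinocyte markers rose beside it.

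Of 11 tested secreted factors that the study names in nevus melanocytes, 3 fell and 3 rose, against 12.5% and 15% over all genes tested. Since the study chose them on libraries of this series, the list is not independent evidence. *Spp1*, the gene of osteopontin (chromosome 5, 104435118 to 104441050), fell from 61.4 and 62.96 to 22.04 and 16.4 FPKM (log2 change -1.66 ± 0.125 SE, adjusted p = 1.1e-05). *Fstl1*, a BMP antagonist gene, fell from 33.9 and 35.7 to 13.2 and 8.67 FPKM (-1.61), and *Wisp1*, a matricellular gene, from 1.40 and 2.05 to 0.07 and 0.23 FPKM (-1.24). *Igfbp4*, an insulin-like growth factor binding protein gene, rose from 23.9 and 31.1 to 67.6 and 61.9 FPKM (1.21, not called with library sums set equal, at 0.89, or quantile normalization, at 0.94), as did *Wif1* and *Bmp4*. The part of other cells in these 3 rises was not tested.

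The 15 largest rises on the log2(FPKM + 1) scale were mostly genes of fast skeletal muscle. They include the myosin light chain genes *Myl1* (1.71 and 1.49 against 307 and 287 FPKM, 6.84) and *Mylpf* (3.64 and 7.18 against 279.7 and 268 FPKM, 5.48), the troponin genes *Tnnc2* (1.58 and 1.93 against 257 and 248 FPKM, 6.53), *Tnni2* (2.34 and 1.33 against 187 and 167 FPKM, 5.99) and *Tnnt3* (1.84 and 1.12 against 148 and 128 FPKM, 5.82), the actin gene *Acta1* (4.22 and 3.20 against 364 and 337 FPKM, 6.23), the creatine kinase gene *Ckm* (0.65 and 0.81 against 112 and 106 FPKM, 5.99), the parvalbumin gene *Pvalb* (0.44 and 0.52 against 79.3 and 78.3 FPKM, 5.75) and the phosphoglycerate mutase gene *Pgam2* (0.21 and 0.91 against 36.8 and 36.4 FPKM, 4.63). These muscle genes were at or below 7.18 FPKM in both P30 libraries. *Gpha2*, a glycoprotein hormone subunit gene (chromosome 19, 6226380 to 6227768), rose from 1.91 and 2.19 to 399 and 379 FPKM (log2 change 7.0 ± 0.096 SE, adjusted p = 1.15e-08).

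The other large rises are uncertain. *Gm10800* (13.3 and 10.4 against 1713 and 1936 FPKM, 7.16), *Gm10801* (2.72 and 1.91 against 398 and 441 FPKM, 7.0), *Gm21738* (0.42 and 0.41 against 63.1 and 67.5 FPKM, 5.55) and *Gm10717* (0.29 and 0.13 against 23.9 and 34.3 FPKM, 4.62) are predicted gene models whose reads may be shared with near copies. *Ltbp4*, a matrix gene, appears under 2 identifiers, between which reads may be split. One was listed at 0 in both P30 libraries and at 45.1 and 36.5 FPKM in the P56 libraries, and the other was 6.09 and 5.47 against 21.6 and 21.5 FPKM.

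The 15 largest falls on the log2(FPKM + 1) scale held enzymes and surface or secreted proteins. *Hpse*, the heparanase gene (chromosome 5, 100679484 to 100719716), had the largest on that scale, from 89.02 and 102 to 0.24 and 0.63 FPKM (log2 change -6.08 ± 0.141 SE, adjusted p = 4.79e-08). *Sdc3*, which encodes a heparan sulfate proteoglycan (chromosome 4, 130792537 to 130826319), fell from 222 and 227 to 3.74 and 2.70 FPKM (-5.75 ± 0.127 SE, adjusted p = 3.68e-08). This order depends on the pseudocount. With a pseudocount of 5, *Alppl2* (-5.23) lay below *Sdc3* (-4.81) and *Hpse* (-4.21), and with 0.1 the 3 *Prl2c* genes that were listed at 0 at P56 lay below both.

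*Alppl2*, an alkaline phosphatase gene, fell from 960.4 and 1010.4 to 22.4 and 20.3 FPKM (log2 change -5.46), the carbonic anhydrase genes *Car6* from 132 and 129 to 2.06 and 1.60 FPKM (-5.55) and *Car2* from 51.8 and 48.9 to 1.02 and 0.39 FPKM (-4.94), and *Fetub*, which encodes a fetuin, from 140.4 and 146 to 2.04 and 2.22 FPKM (-5.53). *Olfm2* (38.2 and 39.9 against 0.87 and 1.03 FPKM, -4.36), an olfactomedin gene, *Lhfpl2* (61.6 and 59.4 against 2.28 and 2.16 FPKM, -4.26) and *Trem2*, a lipid receptor gene known from macrophages (25.3 and 24.5 against 0.19 and 0.63 FPKM, -4.22), fell as well. *Mgp*, a matrix protein gene (594 and 537 against 27.9 and 30.1 FPKM, -4.24), and *Col1a1* are expressed in fibroblasts, whose markers were lower at P56. *Prl2c5*, *Prl2c2* and *Prl2c3*, at 53.5 and 44.9, 34.7 and 36.8 and 37.7 and 28.2 FPKM at P30, and *Klk1b21*, at 21.6 and 13.7 FPKM, were listed at 0 in both P56 libraries. These 4 belong to families of near-identical copies, so the counts of the single genes are uncertain.

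Markers of 12 other cell types were read to see which other RNA the libraries held. Over all genes tested 15% rose and 12.5% fell. Of 14 tested keratinocyte markers 13 rose (median 2.15). *Krt15*, a keratin gene of the bulge, rose from 75.5 and 82.5 to 1468 and 1379 FPKM (log2 change 4.15), *Krt14*, a basal keratin gene, from 314 and 330.5 to 2142 and 1943 FPKM (2.66), and *Col17a1*, a hemidesmosome gene, from 4.15 and 3.98 to 45.03 and 44.98 FPKM (3.18). Of 12 hair matrix and shaft markers 4 fell and 2 rose. Those that fell are keratins of the inner root sheath of growing follicles, among them *Krt71* (36.7 and 39.4 against 3.74 and 3.90 FPKM, -3.02) and *Krt25* (15.6 and 15.4 against 1.06 and 1.07 FPKM, -3.0), and *Hoxc13*, a hair factor gene, rose from 0.15 and 0.67 to 12.9 and 13.7 FPKM (3.37).

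Of 10 fibroblast markers 7 fell (median -2.10), led by the collagen genes *Col1a1* (328 and 352 against 13.4 and 12.7 FPKM, -4.60), *Col1a2* (268 and 275 against 14.6 and 14.9 FPKM, -4.11) and *Col3a1* (314 and 309 against 19.9 and 15.97 FPKM, -4.05), and *Fbln1*, a matrix gene, rose from 14.6 and 11.3 to 50 and 49.8 FPKM (log2 change 1.88). All 5 tested skeletal muscle markers rose, and *Myh1* was listed at 0 in both P30 libraries. All 6 tested endothelial markers rose, with a summed level of 16.7 and 9.80 FPKM at P30 and 138 and 126 FPKM at P56 and with *Cldn5*, a tight junction gene, from 0.92 and 1.46 to 51.2 and 47.6 FPKM (4.53). Of 6 mural cell markers 1 rose and 2 fell.

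Myeloid markers divided, as 5 rose and 5 fell of 15 (summed level 922 and 877 FPKM at P30 and 2898 and 2620.4 FPKM at P56). The antigen presentation genes *Cd74* (260.3 and 231 against 1324 and 1206 FPKM, 2.36) and *H2-Ab1* (136 and 133 against 479 and 427 FPKM, 1.74) and the Langerhans cell gene *Cd207* (0.25 and 0.30 against 5.44 and 4.89 FPKM, 2.27) rose, and the complement genes *C1qa* (19.9 and 21.1 against 5.15 and 4.37 FPKM, -1.90) and *C1qb* (37 and 40.9 against 12.6 and 9.04 FPKM, -1.77) fell. Of 3 adipocyte markers 2 rose, *Fabp4*, a fatty acid carrier gene (9.87 and 8.54 against 137 and 132 FPKM, 3.74), and *Car3* (0.68 and 1.45 against 37.7 and 36.2 FPKM, 4.22). Of 8 lymphocyte markers 3 rose (summed level 19.8 and 19.2 FPKM at P30 and 66.5 and 66.4 FPKM at P56), of 4 erythroid markers 1, and of 4 mast cell markers 3. *Tpsab1*, *Ms4a2* and *Tpsb2* of the mast cell list were not tested and were at 0 in both P30 libraries, and 1 of them was at 0 in both P56 libraries too.

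Markers of Schwann cells and glia, which share an origin in the neural crest with melanocytes, split into 6 that rose and 4 that fell of 14 tested. *Mbp*, a myelin gene, rose from 1.86 and 2.22 to 21.4 and 20.7 FPKM (log2 change 2.86). *S100b*, expressed in glia and melanocytes alike, fell from 191 and 191 to 35.5 and 36.3 FPKM (-2.38), and *Ngfr* and *Foxd3*, given above, are in this list too. With a pseudocount of 5 the counts that rose were 3 for endothelial and 1 each for lymphocyte and mast cell markers, and those that fell were 3 for myeloid and 2 each for Schwann and hair matrix markers. Of the erythroid markers 3 rose without WT P30 replicate 1. Whether RNA of the other cells altered the values of genes they share with melanocytes was not tested.

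**Figure D5:**
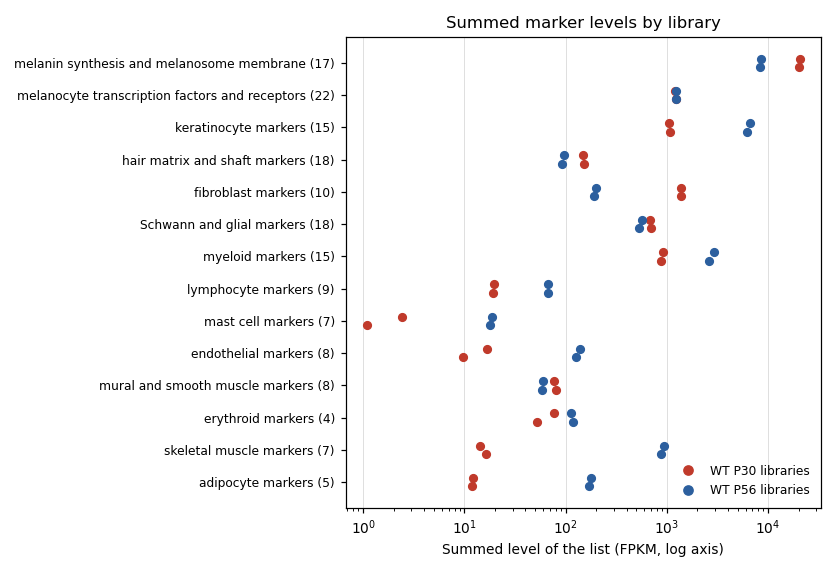
Summed FPKM (log axis) of 2 melanocyte lists and 12 lists of other cell types in each WT P30 (red) and WT P56 (blue) library, with the number of genes in brackets; points are libraries. Skeletal muscle, adipocyte, endothelial and keratinocyte sums are higher and fibroblast and melanin synthesis sums lower at P56, while the sums of lineage factors and receptors overlap.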

How the data were processed

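RNA of sorted dorsal skin melanocytes was sequenced after Smart-seq2 amplification, which does not mark strand, so overlapping antisense genes cannot be separated. The authors aligned reads with STAR 2.4.2 to mm10 (GRCm38), quantified genes with RSEM and deposited FPKM values (fragments scaled by transcript length and mapped reads), without counts, so the count models the study applied could not be used. Such values depend on the RNA makeup of each library. Gene symbols stored as dates were restored (24 genes), 152 identifiers lacked a position, 13 tested genes lie in the mitochondrial genome, and 10 took their chromosome from RefSeq by symbol.

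Log2(FPKM + 1) was fitted with limma 3.58.1 (trended variance prior, R 4.3.3), with 1 mean for each of the 3 melanocyte groups (6 libraries, 3 residual degrees of freedom). Tested on simulated data for this comparison (11884 genes), the fit called 49 of 50 and 45 of 50 genes changed by 1.5 and -1.5 on the log2 scale, 50 of 50 and 49 of 50 at 3 and -3, and 0 of 11684 unchanged genes. Changes were placed only in genes of higher level, and the noise was independent, normal and drawn from the spread of the same fit. The result therefore does not cover low genes, other kinds of noise or a change in as many genes as were called here. The members and the 34 gene lists (595 genes, 589 in the table, 547 tested) were chosen with earlier results of these data known. Lists are described by counts and medians. Named genes are the 15 largest called rises and falls whose higher group averaged at least 5 FPKM without overlap, the 2 to 6 called members of each list with the largest change (or the 2 highest where none was called) and 16 fixed genes. Other names, among them *Pax3*, *Id2*, *Id4*, *Axin2*, *Hes1*, *Myo5a*, *Rab27a*, *Cdk1* and the remaining melanin genes, were chosen after their values were seen. Alternatives covered scaling, pseudocount (0.1 and 5), filter, libraries fitted, variance prior, fold threshold, replicate block and leaving out each library.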

Additional observations from a re-analysis of the deposited data

How the results depend on the processing

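Of 15 alternatives, none reversed the sign of a called gene, but most could not have done so. The ages did not overlap for any of the 3265 called genes, so neither a pseudocount nor leaving out a library could reverse them. The filters, variance prior, fold threshold, replicate block and choice of libraries fitted left the changes as they were. The number of called genes (3265, of which 1784 were higher and 1481 lower) was 1565 (907 and 658) with a pseudocount of 5 FPKM and 8681 (4972 and 3709) by adjusted p alone, and the lower genes numbered 2420 with library sums set equal. Counts over the genes of all lists (229, of which 109 were higher and 120 lower) were 456 (220 and 236) by adjusted p alone, and 77 were lower with a pseudocount of 5 FPKM. Leaving out 1 library at a time gave 3247 to 3443 called genes (1738 to 1864 higher and 1425 to 1581 lower) and 226 to 232 list genes (109 to 113 higher and 115 to 122 lower), and 90.9% to 94.2% of the calls were kept. The other library of that age was then assumed to vary like the other groups. The scalings kept 82.5% to 89.5% of the calls and moved the median of all genes from 0.146 to -0.152 (library sums), -0.038 (median ratio) and 0.017 (quantile). The cause of these moves was not tested, other than that a higher pseudocount shrinks the changes of low genes and that dropping the fold threshold adds small changes. With the replicate number as a block (replicate block), 3267 genes were called, 1785 higher and 1482 lower, and 229 list genes. Deviations of same-numbered libraries correlated at 0.001 between WT P30 and WT P56 and at -0.009 and 0.044 with the mutant, so no shared deviation by replicate number was seen. With 2 libraries per group this cannot show whether same-numbered libraries share a source, and the labels do not say. The depth of each single library is unknown, so what low values could show was not assessed.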

Other observations

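Clock and stress genes were described for the same libraries, from lists that the comparisons above do not use. Of 18 tested circadian clock genes 3 fell and 1 rose, against 12.5% and 15% over all genes tested, and 5 fell with library sums set equal. *Tef*, an output gene of the clock, fell from 43.1 and 42.5 to 10.3 and 9.59 FPKM (log2 change -2.0), *Nr1d2*, which encodes a repressor of the loop, from 21.2 and 24.7 to 5.94 and 6.27 FPKM (-1.75), and *Bhlhe41*, a further repressor gene, from 67.5 and 71.9 to 21.9 and 22.6 FPKM (-1.60). *Nfil3*, whose product opposes that of *Tef*, rose from 47.7 and 54.3 to 117 and 114 FPKM (1.17, not called under the 3 other scalings, at 0.84 with library sums set equal). The hour at which skin was taken is not given in the labels, so age and hour cannot be told apart.

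Of 21 antioxidant genes 4 fell and 1 rose, against 12.5% and 15% over all genes tested. The count that fell was 6 to 8 under the 3 other scalings and 1 with a pseudocount of 5, and 3 rose without WT P30 replicate 1. *Gsta4*, a glutathione transferase gene, fell from 309 and 313 to 41.4 and 41.9 FPKM (log2 change -2.87), and *Mt2*, a metallothionein gene, rose from 1337 and 1082 to 3530.2 and 3607 FPKM (1.57). Of 19 endoplasmic reticulum genes 3 fell and 1 rose, against the same shares of all genes. Those that fell include the folding enzyme gene *Pdia4* (62.99 and 73.97 against 18.4 and 18.7 FPKM, -1.83) and the chaperone gene *Canx* (86.3 and 88.5 against 31.8 and 27.2 FPKM, -1.54). *Atf4*, a stress-response factor gene, rose from 318 and 344 to 709 and 651 FPKM (1.04, not called under the 3 other scalings, at 0.70 with library sums set equal, or without WT P30 replicate 1, at 0.98, or WT P56 replicate 1, at 0.97).

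Of 19 interferon response genes 5 rose and 0 fell, against 15% and 12.5% over all genes tested, and with library sums set equal 2 rose and 2 fell. The largest rise was that of *Rtp4* (28.98 and 28.1 against 94.05 and 96.9 FPKM, 1.71). *Cxcl9*, a chemokine gene, was uneven within an age, at 1.44 and 1.76 against 3.70 and 10.7 FPKM (1.51, or 0.86 and not called without WT P56 replicate 2). Of 12 MHC class I presentation genes 0 were called. By adjusted p alone (limma) 4 were higher and 4 lower, in each case by less than 2-fold. That threshold gave 4972 higher and 3709 lower of all 11884 genes tested, so the list did not stand out. The 2 with the highest level were *B2m*, the light chain gene, at 7363 and 6772 against 6438 and 6434 FPKM (-0.13), and *H2-D1*, a heavy chain gene, at 1594 and 1688 against 1885 and 1689 FPKM (0.12).

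The predicted models *Gm10800*, *Gm10801*, *Gm21738* and *Gm10717* and the *Ltbp4* identifier listed at 0 at P30 were high in the WT P56 libraries and at 0 to 0.37 FPKM in the 2 mutant P56 libraries. *Gm10800* was at 1713 and 1936 FPKM in WT P56 and at 0.37 and 0.33 FPKM in mutant P56, so its level differed within 1 age as well.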
